A study of Mus musculus with 2 samples.

Results

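The 39 protein-coding Hox genes of the mouse, in their 4 chromosomal clusters, were examined for accessible chromatin in frontal cortex by DNase-seq. They were taken by symbol (Hoxa, Hoxb, Hoxc or Hoxd followed by a number) from the GENCODE M21 annotation of mm10, which holds 21938 protein-coding genes on the autosomes, X and Y. The Hoxa cluster has 11 genes on chromosome 6 (52155590 to 52260880), Hoxb 10 on chromosome 11 (96194316 to 96368256), Hoxc 9 on chromosome 15 (102921103 to 103036852) and Hoxd 9 on chromosome 2 (74668310 to 74765142). Each cluster was extended by 50 kb on both sides, which gave 891.815 kb in all.

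The tissue was frontal cortex of female B6CASTF1/J mice, an F1 cross of C57BL/6J and CAST/EiJ, aged 14 days. There was 1 group of 2 libraries, labelled biological replicates 1 and 2, from separate biosamples with the same donor label. A label of both reads 3x without explanation, so pooling of animals can be neither read from it nor dismissed, and part of the difference between the libraries may be technical. No treatment, mutation or second tissue was labelled, so the Hox genes and clusters were set beside the rest of the genome in the same libraries.

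Hox genes encode homeodomain transcription factors that give cells their position along the head-to-tail axis. Genes at one end of a cluster act toward the head and those at the other end toward the tail, and the number in the name (the paralog group) follows that order. In the nervous system they pattern the hindbrain and spinal cord, and the forebrain forms without them. Where they are off, their chromatin is typically held by Polycomb complexes, and binding of CTCF, an architectural protein that bounds chromatin loops, divides the clusters into segments. DNase I cuts DNA that nucleosomes leave free, so a peak of cutting marks accessible DNA, and a footprint is a short stretch within it that a bound protein shields.

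The sequences below are the stretches, under a footprint, of the strongest accessible site of each Hox cluster and of 4 of the 5 Hox promoters with a peak. The sites of Hoxa7, Hoxb9 to Hoxb8 and Hoxd9 to Hoxd8 match the CTCF consensus within 1 mismatch, a limit at which the cluster peaks were no richer in matches than all peaks (11.8% against 15.4% in replicate 1, 18.2% against 19.3% in replicate 2). Those of Hoxb5, Hoxc10 and Hoxc5 match within 2, and the Hoxc9 to Hoxc8 site within neither. The limit of 2 and the 9-letter run below were set after the data were seen. The sequences were read from the RefSeq copy of GRCm38.p6 (the same build as mm10) 5′ to 3′ on the strand of the match. Capitals mark the letters that equal the 13-letter CTCF consensus. In the last line they mark the 9-letter run AGGTGGCGC that it shares with sites in the Hoxa, Hoxb and Hoxc clusters. The reference is C57BL/6J, and CAST/EiJ alleles were not examined.

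Hoxa7 promoter, chr6:52221802-52221826, minus strand: aaaattCCAGgAGATGGCAgtgtgg

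Between Hoxb9 and Hoxb8, chr11:96278942-96278966, plus strand: cagtggCCgCTAGATGGCAtccttg

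Between Hoxd9 and Hoxd8, chr2:74702389-74702413, plus strand: atttggCCACTAGAGaGCGctgttg

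Hoxb5 promoter, chr11:96303239-96303263, plus strand: caatcgCCgGgAGGTGGCGcgctct

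Hoxc10 promoter, chr15:102966566-102966590, plus strand: aggcagCtgCTAGGTGGCGctgtta

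Hoxc5 promoter, chr15:103013696-103013720, plus strand: gagtcggCACCAGGTGtCGctgtga

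Between Hoxc9 and Hoxc8, chr15:102987588-102987616, plus strand: agtgaacgcgAGGTGGCGCtgttgctcaa

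Replicate 1 had 93641 peaks and replicate 2 had 66196. The authors' peak signal is normalized for read depth on a scale that is not stated, and it came in whole steps of 0.00670 in replicate 1 and 0.00858 in replicate 2. The median was 99 steps per peak in replicate 1 against 83 in replicate 2, and total depth is unknown. As a check of the tissue label, 12 forebrain and cortical neuron genes were set beside 13 hindbrain and spinal genes outside the Hox clusters. A promoter peak was present at 12 of 12 forebrain genes in replicate 1, where all protein-coding genes stood at 63.8%, and 7 of 12 in replicate 2, a share (58.3%) close to the 59.2% of all protein-coding genes. It was present at 7 of 13 hindbrain and spinal genes in replicate 1 and 3 of 13 in replicate 2. Of the fuller lists given further on, the check leaves out the forebrain genes Otx2 and Six3, which had no peak, and the spinal gene Tlx3, which had one in both libraries. In bulk tissue, a site open weakly in many cells and a site open strongly in few cells cannot be told apart.

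Most Hox promoters had no peak. A gene was counted as having a promoter peak when a peak lay at least partly within 500 bp of one of its annotated transcription start sites (TSSs). It was present at 5 of 39 Hox genes (12.8%) in replicate 1, where all protein-coding genes stood at 63.8%, and at 2 of 39 (5.13%) in replicate 2, where they stood at 59.2%. Hoxa7 and Hoxb5 had one in both libraries (5.13%, where all protein-coding genes stood at 58.8%). Hoxc5, Hoxc10 and Hoxd1 had one in replicate 1 alone, and 34 Hox genes had none. The share of genes with one in at least 1 library was thus 12.8% for Hox genes, where all protein-coding genes stood at 64.1%.

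**Figure D1:**
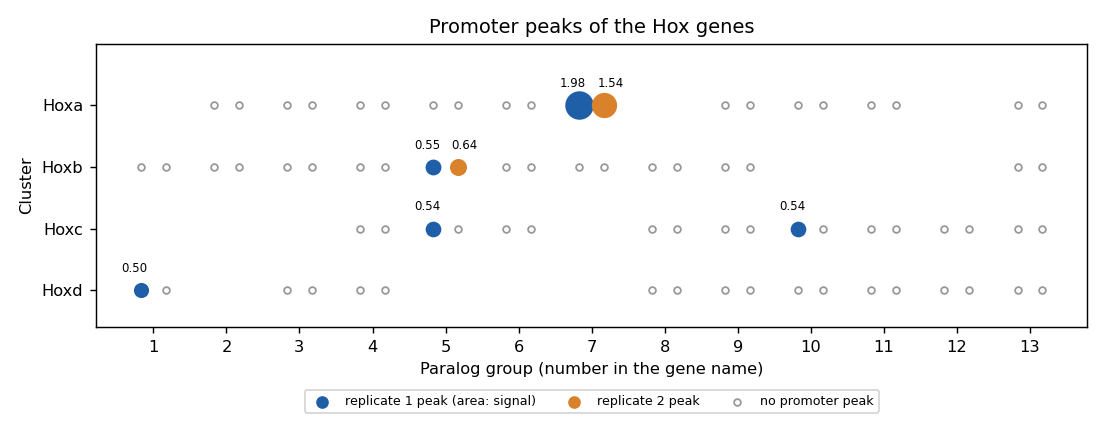
Promoter peaks of the Hox genes, with clusters in rows and paralog groups 1 to 13 in columns. For each gene the left mark is replicate 1 and the right mark is replicate 2, the area of a filled mark is the peak signal, which is printed above it, and an open mark means no promoter peak; marks are given for the genes reported here. The 5 genes with a peak are Hoxa7, Hoxb5, Hoxc5, Hoxc10 and Hoxd1, of which Hoxa7 (1.98 and 1.54) and Hoxb5 (0.549 and 0.643) were called in both libraries.

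Hoxa7, a central Hox gene that patterns trunk segments, had the strongest Hox promoter peak. Its signal was 1.98 in replicate 1 (296 steps, 95% Poisson interval 1.76 to 2.22) and 1.54 in replicate 2 (179 steps, 1.32 to 1.78). Both libraries placed the peak at chr6:52221701-52221920, over the TSS and in the 5′ untranslated part of the first exon. The 2 values lie below the median promoter peak of protein-coding genes, which was 2.70 in replicate 1 (n = 13989) and 1.87 in replicate 2 (n = 12993). The authors' FDR files marked up to 517 bases in a single Hoxa7 promoter window in replicate 1 and up to 331 in replicate 2. The lowest FDR over its windows was 4.60e-13 and 4.32e-08.

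The other 4 peaks were weaker and narrow. Hoxb5, another central gene, reached 0.549 in replicate 1 (chr11:96303183-96303296, 82 steps, interval 0.437 to 0.682) and 0.643 in replicate 2 (chr11:96303181-96303269, 75 steps, 0.506 to 0.806). These peaks ended 40 and 67 bp before the Hoxb5 TSS, inside an intron of the antisense gene Hoxb5os. Hoxb5 was absent from the authors' shorter peak list in both libraries, which leaves Hoxa7 as the 1 Hox gene with a promoter peak in each, where all protein-coding genes stood at 58.9% in replicate 1, 52.7% in replicate 2 and 52.4% in both.

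Hoxc10, a gene of lumbar segments, had a peak of 0.536 in replicate 1 (chr15:102966570-102966635, 80 steps, interval 0.425 to 0.667), 161 bp before its TSS. Hoxc5 also had 0.536 and 80 steps (chr15:103013678-103013734), at a TSS far inside its long gene record. Hoxd1, an anterior gene with a role in sensory neurons, had 0.496 (chr2:74762861-74762982, 74 steps, interval 0.389 to 0.622) over a start it shares with the divergent noncoding gene Haglr. None of these 3 had a peak or an FDR-marked base in replicate 2. The peak widths were 66, 57 and 122 bp, where the median peak at a protein-coding TSS was 240 bp wide in each library.

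Paralog groups 5 to 8 held 3 of the 5 Hox genes with a promoter peak in replicate 1 and both of those in replicate 2. Of the 11 genes in these groups, 3 had a peak in replicate 1 and 2 in replicate 2. Of the 12 genes in groups 1 to 4, Hoxd1 in replicate 1 was the only call. Of the 16 genes in groups 9 to 13, Hoxc10 in replicate 1 was the only call. By cluster, the counts in replicates 1 and 2 were 1 and 1 of 11 for Hoxa, 1 and 1 of 10 for Hoxb, 2 and 0 of 9 for Hoxc, and 1 and 0 of 9 for Hoxd.

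The lack of promoter peaks was not matched by a lack of GC or CpG. The sequence within 500 bp of the 5′ end of the gene record had a median GC content of 57.4% over Hox genes (44.0% to 73.8%) and 54.7% over all protein-coding genes, and a median observed-to-expected CpG ratio of 0.678 against 0.552. Among genes with a GC content at or above the first quartile of Hox genes (53.9%), a promoter peak was present at 4 of 29 Hox genes in replicate 1 and 1 of 29 in replicate 2. In all 11756 protein-coding genes of that GC content, the shares were 87.8% and 82.0%. With the first quartile of the CpG ratio required too, the counts were 3 of 24 and 1 of 24 Hox genes, and the shares of all 9157 such genes were 95.1% and 90.8%. For the long records of Hoxa3, Hoxb3, Hoxc4, Hoxc5 and Hoxd3, the 5′ end of the record may not be the main promoter.

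Peaks, footprints and FDR-marked bases were all derived from the same alignments, so their likeness is no separate support. Bases marked by the FDR files also lay in few Hox promoters. They touched 6 of 39 Hox promoters in replicate 1 (the 5 above and 22 bases at Hoxc11), where all protein-coding genes stood at 64.6%, and 2 of 39 in replicate 2, where they stood at 60.3%. Footprints lay in 4 of 39 Hox promoters in replicate 1 and 2 of 39 in replicate 2, where all protein-coding genes stood at 62.3% and 57.1%. In the clusters with flanks, 67 of 67 footprints in replicate 1 and 44 of 45 in replicate 2 lay inside peaks. Hoxa7 had 7 and 4 footprints in replicates 1 and 2, Hoxb5 had 2 in each, and Hoxc5 and Hoxc10 had 2 each in replicate 1.

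**Figure D2:**
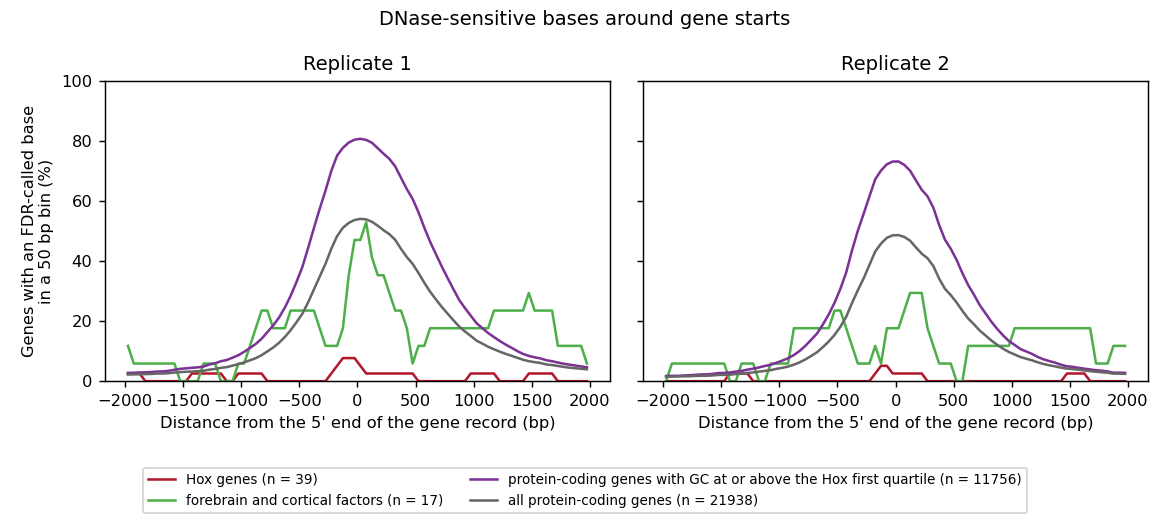
Share of genes (y axis, %) with at least 1 FDR-marked base in each 50 bp bin, against distance from the 5′ end of the gene record (x axis, bp), with replicate 1 on the left and replicate 2 on the right. The Hox line stays at or below 7.69% in replicate 1 and 5.13% in replicate 2, while the line of GC-rich genes rises to 80.8% and 73.2% and that of all protein-coding genes to 54.1% and 48.7%. The line of the 17 forebrain and cortical factors rises to 52.9% in replicate 1 and 29.4% in replicate 2, in the latter below all protein-coding genes.

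The nearest peak lay far from most Hox starts. The median distance from a Hox TSS to a peak was 4099 bp in replicate 1 and 7378 bp in replicate 2, and over all protein-coding genes it was 0 and 11 bp. Hoxc13, the tail end of its cluster, had the widest in replicate 2 (66398 bp, and 14638 bp in replicate 1). In the same library Hoxc12, Hoxd1, Hoxa2 and Hoxb13 had gaps of 50744, 46940, 46856 and 40730 bp.

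The clusters held peaks at about the density of the genome. With flanks they held 34 peaks in replicate 1 (95% Poisson interval 23.5 to 47.5) and 22 in replicate 2 (13.8 to 33.3), which is 3.81 and 2.47 per 100 kb, and the sequenced genome held 3.54 and 2.50. The mean over libraries was 3.14 ± 0.951 per 100 kb (SD, n = 2). Between the first and last gene the density was 4.88 in replicate 1 and 3.25 in replicate 2. Away from the TSSs of any gene the density with flanks was 2.80 in replicate 1 (95% Poisson interval 1.81 to 4.14) and 2.02 in replicate 2 (1.20 to 3.19), and genome-wide 2.49 and 1.62. Within each library and with flanks, the clusters stood above the genome for all peaks in replicate 1 and below it in replicate 2. Away from TSSs they stood above it in both, with the genome value inside each Poisson interval.

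Of the cluster peaks, 9 of 34 (26.5%) in replicate 1 and 4 of 22 (18.2%) in replicate 2 touched a TSS window of any annotated gene, where 29.6% and 35.3% of all peaks did. The other 25 and 18 had a median signal of 0.750 in replicate 1 and 0.733 in replicate 2, and peaks away from TSSs genome-wide had 0.569 and 0.618. Peaks of the other library overlapped 20 of 34 in replicate 1 (58.8%, exact binomial 95% interval 40.7 to 75.4) and 20 of 22 in replicate 2 (90.9%, 70.8 to 98.9). The shares over all peaks were 59.1% and 84.4%, within both intervals.

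**Figure D3:**
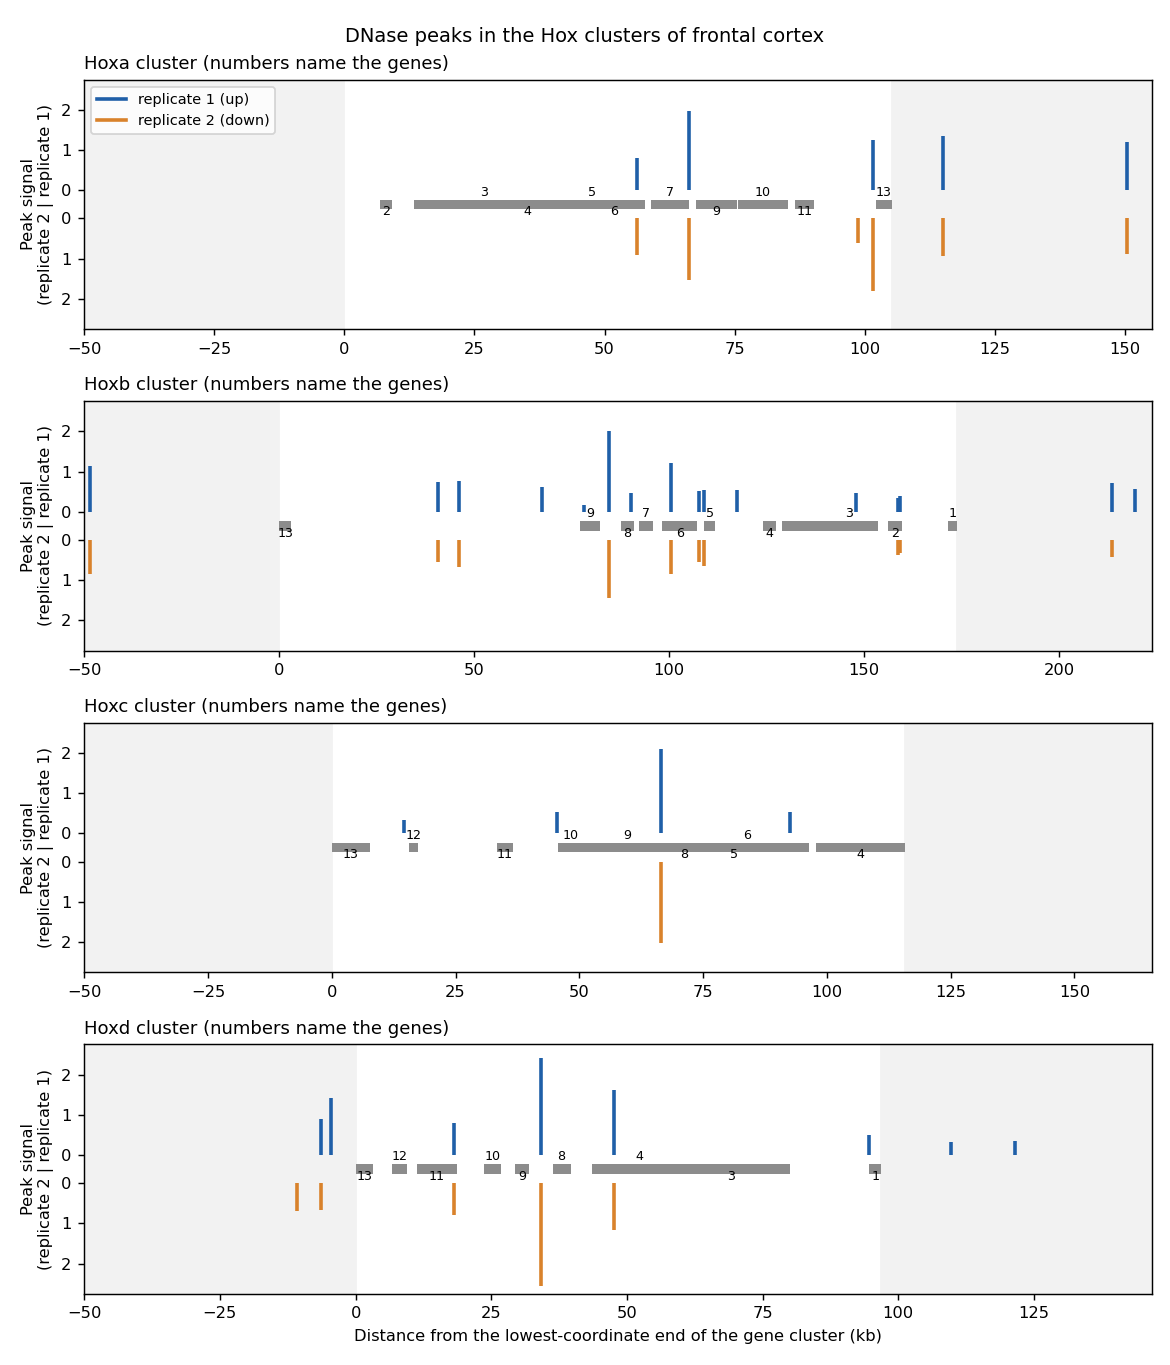
Peaks along the 4 Hox clusters, with distance from the lowest-coordinate end of each cluster in kb on the x axis and peak signal on the y axis. Bars point up for replicate 1 and down for replicate 2, grey boxes are gene records with their numbers, and shaded ends are the 50 kb flanks. Each cluster has its strongest bar of replicate 1 among or beside genes 7 to 9 (1.98, 2.01, 2.10 and 2.41 for Hoxa, Hoxb, Hoxc and Hoxd), and Hoxc has 1 region called in both libraries.

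The clusters differed in how many peaks they held. Hoxb had 16 in replicate 1 and 10 in replicate 2, or 4.75 ± 1.55 per 100 kb (SD, n = 2), and Hoxd had 9 and 5 (3.56 ± 1.44). Hoxa had 5 and 6 (2.68 ± 0.344), and Hoxc had 4 and 1 (1.16 ± 0.983). With flanks, Hoxa was the 1 cluster with more peaks in replicate 2, and Hoxc was the lowest in both libraries. Between the first and last gene in replicate 1, Hoxa was lower, with 3 peaks (2.85 per 100 kb), and Hoxc had 4 (3.46). The ranges of Hoxb and Hoxd overlapped between libraries.

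Merged over libraries, the peaks formed 35 regions, of which 20 were called in both libraries, 13 in replicate 1 alone and 2 in replicate 2 alone. Among the 20, 15 lay between the first and last gene of a cluster and 5 in the flanks. By their midpoints, 8 were intergenic, 6 intronic, 3 in exons of noncoding transcripts, 2 in coding exons and 1 in an untranslated region. Replicate 1 was stronger in 14 of the 20, with a median ratio of replicate 1 to replicate 2 of 1.27 (0.702 to 1.66). The 13 regions of replicate 1 alone had a median signal of 0.496, and the 20 shared ones had 1.02 in that library.

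In replicate 1 the strongest region of each cluster lay among paralog groups 7 to 9, and the same held in replicate 2 for 3 clusters. In Hoxd it was chr2:74702301-74702500, intergenic between Hoxd9 and Hoxd8 and 2115 bp from the Hoxd8 TSS, with 2.41 in replicate 1 (interval 2.17 to 2.67) and 2.56 in replicate 2 (2.27 to 2.86). In Hoxc it was chr15:102987501-102987700, between Hoxc9 and Hoxc8 in an intron of the Hoxc5 record, with 2.10 (1.87 to 2.34) and 2.03 (1.78 to 2.31). In Hoxb it was chr11:96278901-96279060, intergenic between Hoxb9 and Hoxb8, with 2.01 (1.79 to 2.25) and 1.45 (1.24 to 1.69).

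In Hoxa it was the Hoxa7 promoter in replicate 1. In replicate 2 the strongest was an exon of 9530018H14Rik, a noncoding record beside Hoxa13, at chr6:52257041-52257220, with 1.26 in replicate 1 (1.09 to 1.45) and 1.79 in replicate 2 (1.56 to 2.05). Among peaks away from TSSs genome-wide, the Hoxd site ranked at percentile 95.7 in replicate 1 and 97.0 in replicate 2, and the Hoxc site at 94.0 in each. The Hoxb site ranked at 93.4 and 87.3. Each site was picked as the strongest of its cluster, so a high rank is partly fixed by that choice and nothing is read from it.

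Other regions called in both libraries lay in and around the gene bodies. The start of Hoxd3os1, an antisense gene of the Hoxd cluster, had 1.63 in replicate 1 and 1.17 in replicate 2 (chr2:74715841-74716040). An intron of Hoxb6 had 1.22 and 0.849 (chr11:96294601-96294820), and an exon of a noncoding Hoxd11 transcript had 0.797 and 0.781 (chr2:74686422-74686557). The weakest were 2 regions in a coding exon of Hoxb2, a hindbrain gene, with 0.355 and 0.360, and 0.395 and 0.317.

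The flanks held 5 regions called in both libraries. Past the Hoxa13 end of the Hoxa cluster, chr6:52270601-52270800 had 1.35 and 0.943 and chr6:52305961-52306180 had 1.21 and 0.883 in replicates 1 and 2. In Hoxb, an intron of Ttll6 had 1.15 and 0.849 (chr11:96145681-96145880), and an intergenic site past Hoxb1 had 0.710 and 0.429. In Hoxd, a site between Evx2 and Hoxd13 had 0.897 and 0.678 (chr2:74661861-74662084).

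Near matches to the CTCF consensus were common in these peaks. No exact match was found, but the share of all peaks with one is not given here, so nothing is read from that. In the 200 bp around the peak centre, the consensus was found within 2 mismatches on either strand in 21 of 34 cluster peaks in replicate 1 (61.8%, where all peaks stood at 30.7%) and in 15 of 22 in replicate 2 (68.2%, where all peaks stood at 35.0%). Within 1 mismatch it was found in 4 of 34 (11.8%, all peaks 15.4%) and 4 of 22 (18.2%, all peaks 19.3%). The share thus stands above that of all peaks at 2 mismatches and at or below it at 1. The looser limit was set after the values at the stricter limit were seen, and a match is a likeness of letters, not a measured binding site. The window is wider than some peaks, so a counted match can lie past the peak edge. Examples are the match at 74778047 to 74778059 for the Hoxd peak ending at 74778046, and that at 96353605 to 96353617 for the Hoxb2 region ending at 96353600.

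Footprints covered most of these near matches, which is also the case genome-wide. Over all peaks with a match within 2 mismatches, a footprint overlapped it in 19281 of 28755 in replicate 1 and 15643 of 23152 in replicate 2. In the cluster peaks the counts were 17 of 21 and 12 of 15. Of the 20 regions called in both libraries, 15 had a match within 2 mismatches, and a footprint overlapped the match in 14 of them in replicate 1, 12 in replicate 2 and 12 in both, 8 on the plus and 4 on the minus strand. Counted over peaks, 17 of 34 in replicate 1 and 12 of 22 in replicate 2 held a footprinted match, where all peaks stood at 20.6% and 23.6%. Away from TSSs the counts were 10 of 25 and 8 of 18, where all such peaks stood at 24.2% and 30.2%. The exact binomial intervals of these cluster shares were 21.1% to 61.3% in replicate 1 and 21.5% to 69.2% in replicate 2. Each contains the share of all such peaks, so no difference is read away from TSSs. Of the Hox promoter peaks, 4 of 5 in replicate 1 and 2 of 2 in replicate 2 held a footprinted match. Peaks at protein-coding TSSs stood at 11.5% and 10.8%.

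At the Hoxa7 promoter the footprint over the match ran from 52221800 to 52221824 in replicate 1 and from 52221798 to 52221824 in replicate 2, on the stretch printed above. At Hoxd11 it ran from 74686472 to 74686499 and from 74686479 to 74686503. In the Hoxb9 to Hoxb8 interval it ran from 96278943 to 96278962 and from 96278941 to 96278964. The bounds were less alike at Hoxd3os1, where they were 74715916 to 74715943 in replicate 1 and 74715921 to 74715935 in replicate 2. In the Hoxa flank, 1 footprint of replicate 1 (52306049 to 52306065) stood where replicate 2 had 2 (52306049 to 52306058 and 52306061 to 52306067).

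The 4 shared regions within 1 mismatch were the Hoxa7 promoter, the Ttll6 intron and the sites between Hoxb9 and Hoxb8 and between Hoxd9 and Hoxd8. Their median signal was 2.00 in replicate 1 and 1.49 in replicate 2, and that of the other 16 shared regions was 0.804 and 0.729. The groups overlapped, since the Hoxc site (2.10 and 2.03) had 3 mismatches and the Ttll6 site had 1.15 and 0.849.

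**Figure D4:**
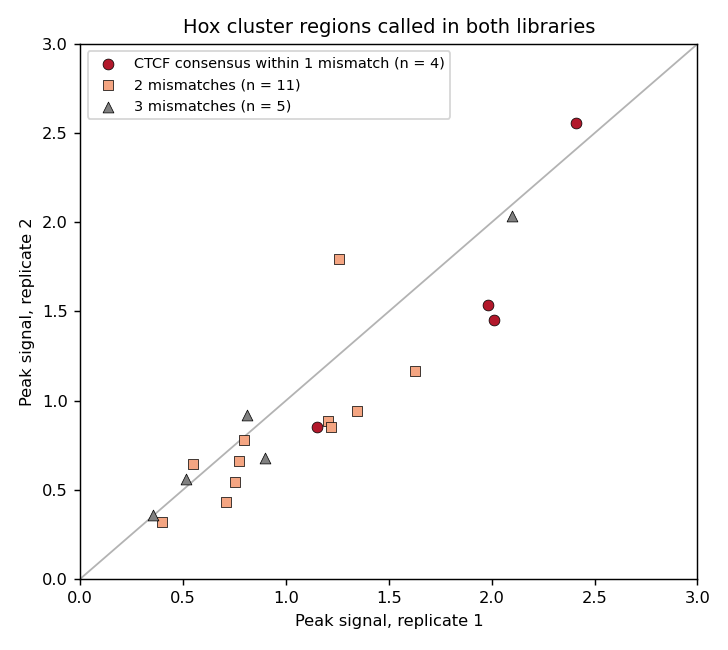
Peak signal of the 20 Hox cluster regions called in both libraries, with replicate 1 on the x axis and replicate 2 on the y axis. Symbols give the mismatches to the CTCF consensus and the line marks equal signal. Of the 5 regions nearest the top right, 3 have 1 mismatch, and the triangle at 2.10 and 2.03 is the site between Hoxc9 and Hoxc8.

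The Hoxc site carried the run AGGTGGCGC under a 30-base footprint, 102987588 to 102987617, that had the same bounds in both libraries. All letters of the run but the last fit the end of the CTCF consensus, so it is not a pattern apart from it. A search for this run was added because it was seen at the Hoxc site and at other cluster sites, so its count in the clusters is partly fixed by that choice. It occurred on either strand in 4 of 34 cluster peaks in replicate 1 (11.8%, where all peaks stood at 1.25%) and 3 of 22 in replicate 2 (13.6%, all peaks 1.58%), always on the plus strand and always under a footprint of the library in which the peak was called. Without the Hoxc peak the counts were 3 of 33 (9.09%) and 2 of 21 (9.52%), and nothing is read from them. At the other 3 sites the run overlaps the match to the consensus within 2 mismatches that was counted above. The flanking letters differ between these sites, which are printed with the run in capitals.

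9530018H14Rik exon, chr6:52257116-52257144: tgtcaacacgAGGTGGCGCccttgatcta

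Hoxb5 promoter, chr11:96303240-96303268: aatcgccgggAGGTGGCGCgctctgctca

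Hoxc10 promoter, chr15:102966567-102966595: ggcagctgctAGGTGGCGCtgttactcca

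Footprints as a whole were about as dense in the clusters as in the genome, and which was higher depended on the flanks. With flanks there were 67 in replicate 1 and 45 in replicate 2, or 7.51 and 5.05 per 100 kb, and the genome had 8.84 and 5.82. The mean over libraries was 6.28 ± 1.74 per 100 kb in the clusters and 7.33 ± 2.14 in the genome (SD, n = 2 each). Between the first and last gene the direction turned, with 9.96 in replicate 1 and 6.91 in replicate 2, a mean of 8.44 ± 2.16 (SD, n = 2). The share of bases marked by the FDR files was 0.861% and 0.491%, against 1.14% and 0.787% genome-wide. Peaks holding a footprint made up 28 of 34 (82.4%) in replicate 1 and 21 of 22 (95.5%) in replicate 2, where all peaks stood at 78.7% and 75.8%.

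Of the other letter patterns searched in footprints with 5 bp on each side, on both strands, the E-box CANNTG, bound by neuronal basic helix-loop-helix factors among others, was the most frequent. It was present in 11 of 67 cluster footprints (16.4%) in replicate 1 and 6 of 45 (13.3%) in replicate 2, where all footprints stood at 9.77% and 9.18%. The SP/KLF box GGGCGG was in 4 (5.97%) and 2 (4.44%), where all stood at 8.05% and 8.35%. The CREB/ATF site TGACGTCA was in 1 and 0, where all stood at 0.313% and 0.354%. The homeobox core TAATTA (all footprints 0.134% and 0.111%), the HOX-PBX site TGATTNAT (0.0564% and 0.0519%), the YY1 core AANATGGC (0.562% and 0.665%), NRF1 (0.770% and 1.13%), nuclear factor I (0.262% and 0.258%) and REST were in none. The exact CTCF consensus was also in none, where all stood at 1.89% and 2.49%. At such shares 67 or 45 footprints can hold none, so these zeros do not set the clusters apart.

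Few noncoding genes inside the clusters had a promoter peak, which is also the case genome-wide. Of 43 between the first and last Hox gene, pseudogenes included, 5 had one in replicate 1, where all 33475 genes that are not protein-coding stood at 12.2%, and 2 in replicate 2, where they stood at 9.89%. Those in both were 9530018H14Rik and Hoxd3os1, and Gm53 (0.616), Gm11536 (0.476) and Haglr (0.496) had one in replicate 1 alone. Hotair and Hotairm1, long noncoding RNA genes of the Hoxc and Hoxa clusters, had none. The 7 microRNA genes also had none, among them Mir10a, Mir10b and Mir196b, whose products target Hox transcripts.

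The genes on either side of the clusters mostly did have open promoters. The 3 nearest protein-coding genes outside each end of a cluster gave 24 neighbours, of which 20 had a promoter peak in both libraries (83.3%, where all protein-coding genes stood at 58.8%). Skap2, 143041 bp outside the Hoxa cluster, had 5.68 in replicate 1 and 3.33 in replicate 2. Lnpk, 88875 bp beyond the Hoxd13 end, had 3.80 and 1.95, and Mtx2, 60661 bp beyond Hoxd1, had 1.46 and 1.10. The 4 without a peak were Calcoco2, Skap1 and the homeobox genes Evx1 and Evx2, which lie next to Hoxa13 and Hoxd13. Skap1, Evx1 and Evx2 are each the nearest neighbour on their side, and the nearest on the other sides had a peak, with Ttll6 weak at 0.978 and 0.515. The neighbours reach out to 910371 bp (Nfe2l2), so the count does not describe the cluster borders alone. By the GC limit used above, 16 of the 24 were GC-rich, and all protein-coding genes at or above that limit stood at 87.8% in replicate 1 and 82.0% in replicate 2.

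Relatives of the Hox genes outside the clusters, the ParaHox, Cdx and Evx genes, were also mostly without a promoter peak. Replicate 1 had one at 1 of the 8 genes and replicate 2 at 2, where all protein-coding genes stood at 63.8% and 59.2%. Gsx1, a homeobox gene of the ventral forebrain, had 0.958 and 0.609, and Cdx4 had 0.223 in replicate 2 alone. No promoter peak was called at Gsx2, Pdx1, Cdx1, Cdx2, Evx1 or Evx2.

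Forebrain patterning factors, many of them homeodomain proteins, had a promoter peak at 15 of 17 genes in replicate 1 and 10 of 17 in replicate 2, where all protein-coding genes stood at 63.8% and 59.2%. The count in replicate 2 (58.8%) is thus close to that of all genes. Otx2 and Six3, which act in early forebrain and eye patterning, had none in either library. Pax6 had 2.04 and 1.60, and Lhx2 had 2.26 and 1.42. Hindbrain and spinal factors outside the clusters stood at 8 of 15 and 4 of 15. Egr2, which activates Hox genes in the hindbrain and is also induced by neuronal activity, had 2.50 and 1.83.

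Genes for the partners and regulators of Hox proteins mostly had open promoters, where all protein-coding genes stood at 63.8% in replicate 1 and 59.2% in replicate 2. All 9 cofactor genes of the PBX, MEIS and PKNOX families, whose proteins bind DNA together with Hox proteins, had a promoter peak in both libraries, with Pknox1 at 7.46 and 4.67. Of 17 Polycomb genes, 17 had one in replicate 1 and 16 in replicate 2, where Bmi1 had none. Ezh2, the methyltransferase of Polycomb complex 2, had 5.64 and 2.82, and Jarid2, a subunit that recruits it, had 7.57 and 4.16. Trithorax and MLL genes, whose products counter Polycomb silencing, stood at 9 of 10 and 8 of 10, with Kmt2a at 5.44 and 3.52. Kmt2d had no promoter peak, and Kdm6b had 0.985 in replicate 1 alone. By the GC limit used above, 8 of 9 cofactor, 14 of 17 Polycomb and 8 of 10 Trithorax and MLL genes were GC-rich. All protein-coding genes at or above that limit stood at 87.8% in replicate 1 and 82.0% in replicate 2, so high counts are common at such GC content.

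**Figure D5:**
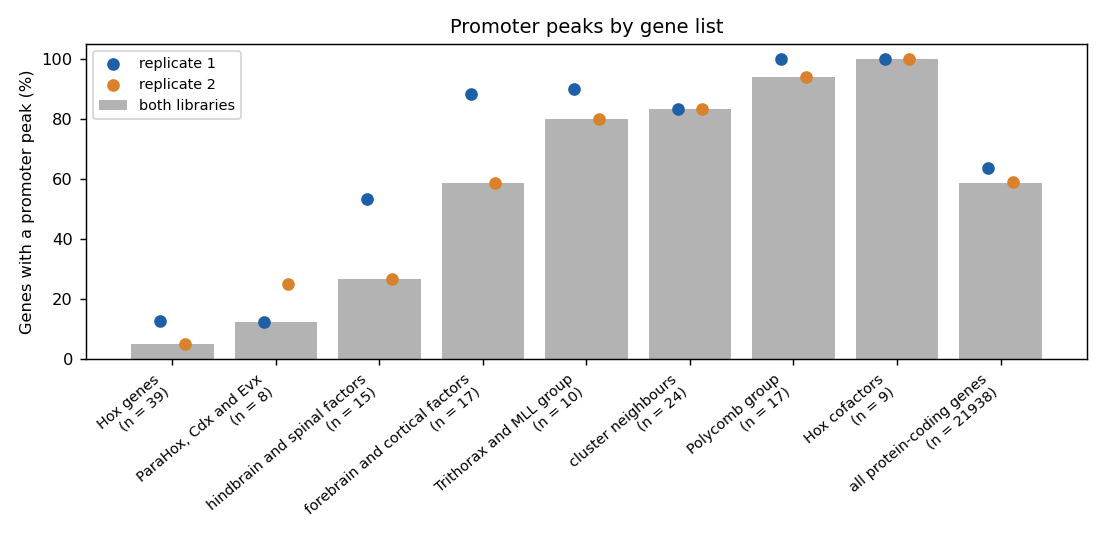
Share of genes with a promoter peak (y axis, %) for the Hox genes, 7 comparison lists and all protein-coding genes, with bars for both libraries together and points for each library. The Hox genes are lowest at 5.13% in both libraries, next to the ParaHox, Cdx and Evx genes at 12.5%, while the Hox cofactors stand at 100% and all protein-coding genes at 58.8%.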

How the data were processed

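DNase-seq libraries were analysed from their deposited files. Per the deposited notes, the authors derived peaks, footprints and FDR stretches from each library's own mm10 alignments; aligner, caller, thresholds and filters were not stated in the labels or notes. The deposited peak signal is depth-normalized by the authors. In the deposited FDR files, on a p-value scale, each listed stretch is below 0.05. The deposited footprint value is a constant in place of a score, so positions alone were used. The longer of the authors' 2 peak lists was used, and the shorter was an alternative.

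Signals were whole multiples of the library's smallest step for 100% of peaks within 0.05 steps, and Poisson intervals take 1 step as 1 cut, covering counting error only. Sharing needed an overlap of 1 bp. GENCODE M21 gave genes and TSSs, and GRCm38.p6 gave sequence. Overlaps and counts were computed with numpy 2.4.6, pandas 2.3.3 and scipy 1.17.1, and the functions were tested on simulated data.

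With 1 group no test between groups was possible, so counts stand beside the share of all features. Members, lists and rules were chosen with earlier results of these data known. Named genes were the strongest promoters, every Hox gene with a peak, the strongest region per cluster and the 2 strongest genes per list, some of which are not reported here; Ezh2, the neighbours and the other regions given were picked with their values known. The CTCF limit of 2 mismatches, the footprinted matches, the CpG-matched genes, the 9-letter run, the density away from TSSs and the share of noncoding genes were added after seeing the data.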

Additional observations from a re-analysis of the deposited data

How the results depend on the processing

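Of 63 alternative values of the main results, 46 stayed within the limit set for their kind, and 17 moved. The limit was the replicate spread for densities and 1.5 times the main count for counts. For shares it was the exact binomial interval, and for median strengths the counting error. With the authors' shorter peak list 1 Hox gene had a promoter peak in replicate 1, in replicate 2 and in both (Hoxa7, so the median strength was 1.98 and 1.54, against 0.536 and 1.09). Cluster peaks then numbered 18 and 11, the mean density per 100 kb was 1.63 over all clusters, 1.70 in Hoxa, 2.56 in Hoxb and 1.52 in Hoxd, and 100% of replicate 2 cluster peaks were shared. The shorter list is not the strongest part of the longer one: it holds the Hoxb9 intron peak of 0.174 and not the Hoxb5 peak of 0.549. Without flanks the density was 3.32 in Hoxa and 2.16 in Hoxc, and footprints stood at 8.44 per 100 kb, above the genome mean of 7.33, where with flanks they stood below it at 6.28. CTCF matches within 1 mismatch gave 11.8% and 18.2%, against 61.8% and 68.2% within 2.

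Leaving out each replicate gave 2 to 5 Hox genes with a promoter peak, and densities per 100 kb of 2.47 to 3.81 in all clusters together, 2.44 to 2.92 in Hoxa, 3.65 to 5.84 in Hoxb, 0.463 to 1.85 in Hoxc and 2.54 to 4.57 in Hoxd, with 5.05 to 7.51 footprints. A 1000 bp window added Hoxb9 (0.174) and Hoxc12 (0.342) in replicate 1. Where a named Hox gene still had a promoter peak, all 43 of its strengths under other settings stayed as given. Each is the signal of 1 peak that most settings could only keep or drop, so this is no measure of robustness. No paired analysis was possible because there is 1 group. Peaks weaker than the unstated calling threshold are not seen here, so a promoter without a peak is one with none detected at this depth.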
